A study of Drosophila melanogaster with 4 samples.

Results

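Cytochrome P450 monooxygenases (P450s), glutathione S-transferases (GSTs) and UDP-glycosyltransferases (UGTs) are the 3 large enzyme families of detoxification in insects. They were followed here in heads of Drosophila melanogaster males fed strychnine, a plant alkaloid and convulsant. The members were genes whose single array symbol begins with Cyp and a digit, with Gst or with Ugt, and that had a value on replicates 1, 2 and 4. The rule left 29 genes (16 P450s, 9 GSTs and 4 UGTs) among 3995 units tested, which comprised 2023 named genes and 1972 unnamed pairs of spots. Treated flies were unmated Oregon-R wild-type males, 3 to 4 days old at the start and held 30 to a vial, given 3.33 mg/ml strychnine in the food for 7 days. Controls were males of the same strain kept on normal food. RNA from pools of heads of 1 treated and 1 control set was compared on each of 4 two-colour spotted cDNA slides, labelled as 4 biological replicates. Strychnine-fed heads were labelled with Cy5 for replicates 1 and 2, and with Cy3 for replicates 3 and 4.

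P450s insert oxygen into lipophilic substrates, and GSTs and UGTs attach glutathione or a sugar to a reactive or hydrophilic group so that the product can be excreted. In insects the P450s fall into clans. The CYP3 clan (here Cyp6 and Cyp9 genes) and parts of the CYP4 clan (Cyp4 and Cyp311) and the mitochondrial clan (Cyp12) are known for xenobiotic metabolism, whereas Cyp301a1 of the mitochondrial clan and Cyp303a1 of the CYP2 clan have roles in cuticle and in sensory bristles. Heads hold several tissues in which such enzymes are made, among them fat body, glia and the antennae.

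All values are log2 ratios of 1 slide, centred on the median of that slide unless said otherwise. Replicate 3 repeated the values of replicate 1 at all 7643 spots measured in both, despite its opposite dye label, so these slides were counted as 1 sample called the shared set. It is taken from the column of replicate 1. That left 3 distinct sets: the shared set, replicate 2 and replicate 4. The labels do not state whether a positive value means more treated RNA or more Cy5, so no sign below is called an increase or a decrease after strychnine. Should they be treated over control on every slide, the average of the sets estimates the effect, and its tests against 0 are given first. If they are Cy5 over Cy3, the effect is the part that turns with the dye, and that reading follows. Because head RNA was pooled from whole heads, fewer cells of a type and less RNA per cell cannot be told apart. The values per slide numbered 7647 to 9725 of 27648 spots, and the deposited column medians ran from -0.621 to -0.121. No count of molecules is given for the 4 slides, and only the 3 distinct sets enter the tests, which limits the precision.

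The slide named 108 genes of these families, and 29 had values in all 3 sets, against 2023 of 6793 named genes in general. A value was present for 16 of 73 genes named Cyp, 9 of 23 GSTs and 4 of 12 UGTs. The 73 included 2 pseudogenes and Cyp40, a cyclophilin whose symbol matches by spelling only, and none of these 3 had a value. Another 12 genes had values on some slides, and 67 had none. Those without a value included Cyp6a8 and Cyp12d1-d, P450s known to be inducible by phenobarbital, and GstD2. They were picked out here after it was seen that they had no value. Per the series' design text, the deposited values had passed the authors' filters on signal to noise and flags. No intensities were used here, so how far the 29 genes lay above background is not known.

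Of the 29 genes, 1 passed the threshold of 0.05 on the Benjamini-Hochberg adjusted p of limma, the UGT gene Ugt305A1. Over all 3995 units 10.2% passed, 8.29% of all units on the positive side and 1.93% on the negative side. In this fit 141 of the 2023 named genes passed, against 267 of the 1972 unnamed pairs. The 29 are all named genes, and whether 1 of 29 differs from the share of the named genes was not tested. At an unadjusted p under 0.05 there were 8 of the 29 genes and 34.4% of all units. The median absolute mean was 0.280 over the 29 genes and 0.391 over all units, so these enzyme genes did not stand out by the size of their ratios.

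Ugt305A1 encodes a UDP-glycosyltransferase. It read 1.06 in the shared set, and replicates 2 and 4 gave 0.691 and 0.769. All 3 sets were positive. No other P450, GST or UGT gene measured in all sets had a positive value as high as 1.06 in any set. The mean was 0.839 ± 0.193 (SD, n = 3 sets), 1.79-fold in linear terms, with a 95% interval of 0.375 to 1.30 and an adjusted p of 0.0472 (limma). Of all units 89.5% had a lower mean. The call was lost without replicate 1, without replicate 2 and without replicate 4 (adjusted p of 0.0616, 0.147 and 0.0695), with means between 0.858 and 0.913. It was also lost with the values as deposited, with scale normalization and after correction for the inferred position on the slide (adjusted p of 0.236, 0.0546 and 0.151, means of 0.465, 0.854 and 0.456). The sign was positive under each of these settings. Its position-corrected values were 0.496, 0.462 and 0.409 (SD 0.0437). GstE13 and Ugt301D1 lay in the same inferred slide block as Ugt305A1 and had centred means of 0.229 and -0.208. The medians of that block were 0.507, 0.037 and 0.2375 in the shared set, replicate 2 and replicate 4.

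**Figure D1:**
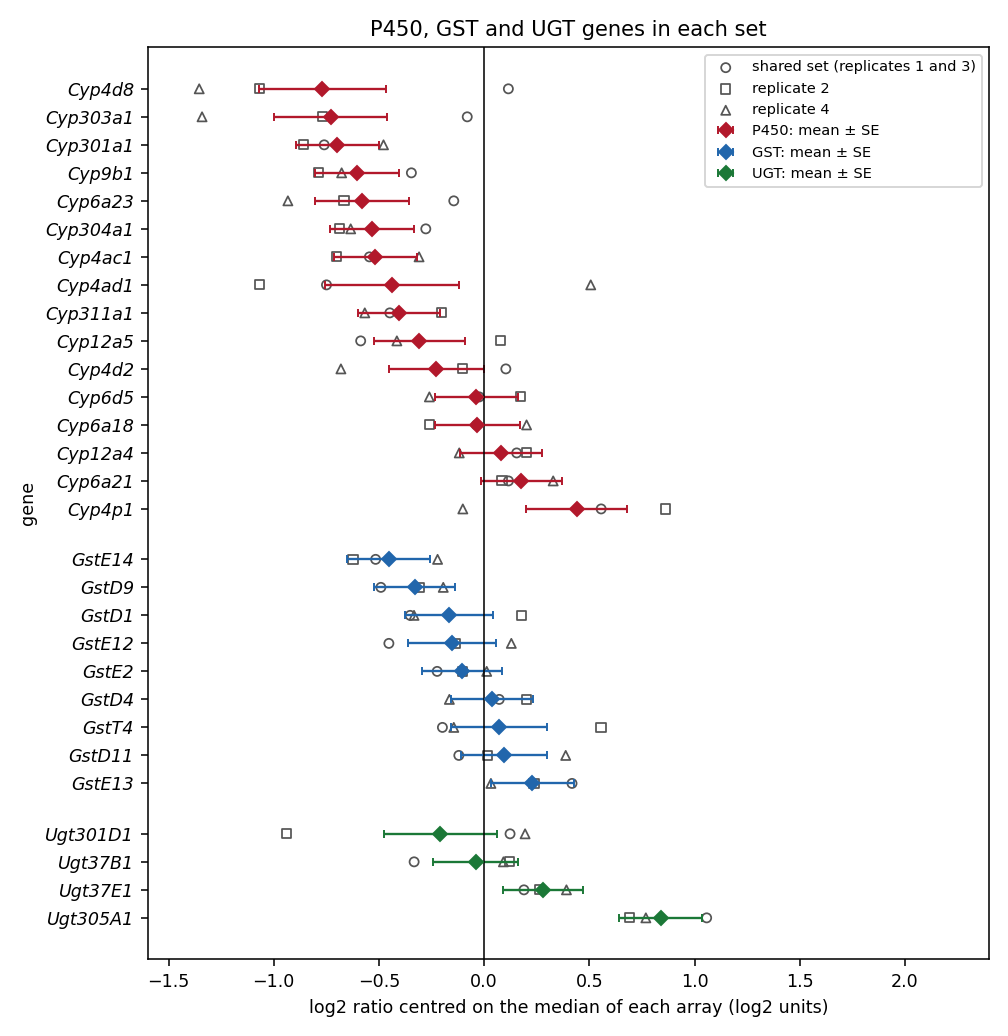
Centred log2 ratio (horizontal axis, log2 units) of each of the 29 genes (vertical axis), with open symbols for the 3 sets, filled diamonds for their mean and bars for its SE from limma. The 16 P450 genes run from -0.769 for Cyp4d8 to 0.439 for Cyp4p1, and Ugt305A1 lies alone at 0.839.

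The other UGTs were near or on both sides of 0. Ugt37E1 read 0.189, 0.261 and 0.391 in the shared set, replicate 2 and replicate 4, positive in each (mean 0.280 ± 0.102, SD, n = 3 sets; limma adjusted p = 0.327). Ugt37B1 read -0.333, 0.121 and 0.0915. Ugt301D1 read 0.123, -0.941 and 0.195, so replicate 2 alone was far from 0. The 4 UGTs had a median of 0.120, with 2 genes positive and none negative in all 3 sets. Of all units, 28.4% were positive and 26.9% negative in all 3 sets.

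P450 genes had the lowest family median, -0.422 over 16 genes, against -0.0257 over all units and -0.0653 over the named genes. Means were below 0 for 13 of the 16, and 7 were negative in all 3 sets while 1 was positive, against 28.6% (negative) and 25.7% (positive) of the named genes. The family medians by set were -0.113 for the shared set, -0.464 for replicate 2 and -0.447 for replicate 4. The shared set therefore showed less of the offset than the other two. Among the 16 P450 genes the shared set correlated with replicate 2 at r of 0.605 and with replicate 4 at r of -0.0760. Replicates 2 and 4 correlated at r of 0.380. In the same order r was 0.552, 0.247 and 0.461 across the 29 genes. Over all units, whose values share slides, r was 0.632, 0.396 and 0.473. None of the 16 passed the threshold in the mean. The smallest adjusted p was 0.0623, for Cyp301a1.

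In the CYP2 clan both measured genes were negative in all sets. Cyp303a1, needed for the structure of sensory bristles, read -0.0805, -0.767 and -1.34 in the order above (mean -0.730 ± 0.631, SD, n = 3 sets; limma adjusted p = 0.108). Cyp304a1 read -0.278, -0.690 and -0.635 (mean -0.534; limma adjusted p = 0.111). The sets did not put these genes at like distances from 0, and for Cyp303a1 the SD was close to the mean itself.

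In the mitochondrial clan, Cyp301a1, which acts in the formation of adult cuticle, read -0.761, -0.858 and -0.479, negative in all sets. Its mean was -0.699 ± 0.197 (SD, n = 3 sets; 95% interval -1.16 to -0.235), and 8.14% of units had a lower mean. Cyp12a5 read -0.587, 0.0765 and -0.415. Cyp12a4, whose overexpression confers resistance to the insecticide lufenuron, read 0.155, 0.203 and -0.119. Cyp12a5 and Cyp12a4 are next to each other in the gene order of assembly Release 6, and their means were -0.309 and 0.0797. The 95% intervals of both means included 0 and overlapped.

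Within the CYP4 clan, 5 of 6 means were negative and the sets disagreed for most genes. Cyp4d8 had the lowest mean of all 29 genes, -0.769 ± 0.779 (SD, n = 3 sets; limma adjusted p = 0.125). Its shared set value was 0.115, while replicates 2 and 4 gave -1.07 and -1.35. Cyp4ad1 read -0.750 and -1.07 but 0.507 on replicate 4, and Cyp4d2 read 0.103, -0.104 and -0.681. Only Cyp4ac1 (-0.546, -0.701 and -0.310) and Cyp311a1 (-0.449, -0.202 and -0.568) were negative in all 3 sets. Cyp4p1 went the other way in the shared set and on replicate 2, at 0.556 and 0.864, and read -0.102 on replicate 4. The clan's median SD between sets was 0.450, against 0.336 over all units.

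The CYP3 clan, which holds most of the P450 genes known for insecticide metabolism, had a median of -0.0369 over 5 genes. Cyp9b1 (-0.346, -0.789 and -0.678) and Cyp6a23 (-0.145, -0.666 and -0.933) were negative in all sets, with means of -0.604 and -0.581 (limma adjusted p of 0.0842 and 0.118). Without replicate 1 the mean of Cyp9b1 was -0.259, since 1 of its 2 pairs of spots had no value on replicate 3. Cyp6d5, a gene inducible by phenobarbital, read -0.0233, 0.173 and -0.261 (mean -0.0369; 95% interval -0.506 to 0.432). Cyp6a18 read -0.0370, -0.262 and 0.202. Cyp6a21 was positive in all sets, at 0.116, 0.0845 and 0.328. Cyp6a23 and Cyp6a21 lie in 1 gene cluster with 3 annotated genes between them in Release 6, and had means of opposite sign, -0.581 and 0.176. Their 95% intervals overlapped, at -1.11 to -0.0528 and -0.276 to 0.628. After correction for the inferred position on the slide the means were -0.163 and 0.0513.

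GST genes had a median of -0.106 over 9 genes, with 2 negative and 1 positive in all sets. None passed the threshold, and the smallest adjusted p was 0.153. GstE14, which acts in ecdysteroid synthesis, read -0.516, -0.624 and -0.222 (mean -0.454 ± 0.208, SD, n = 3 sets). GstD9 read -0.491, -0.306 and -0.195 (mean -0.331). GstE13 was the 1 gene of the family positive in all sets, at 0.418, 0.237 and 0.0320. The remaining 6 had sets of both signs and means from -0.169 to 0.0945.

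Among those 6, GstD1, an abundant enzyme known for dechlorinating DDT, read -0.352, 0.178 and -0.334 (mean -0.169; 95% interval -0.662 to 0.323). GstE12 read -0.453, -0.137 and 0.129, and GstE2 read -0.224, -0.105 and 0.0120. GstD4 read 0.0715, 0.203 and -0.166, and GstD11 read -0.121, 0.0165 and 0.388. GstT4, the theta class member, read -0.199, 0.555 and -0.145. The delta class genes GstD9, GstD1, GstD4 and GstD11 follow each other in that order in Release 6, with 0, 3 and 5 annotated genes between neighbours. Their means were -0.331, -0.169, 0.0363 and 0.0945. The interval of each of the 4 included 0.

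Setting the families side by side, the P450 median minus the GST median was 0.111, -0.480 and -0.302 for the shared set, replicate 2 and replicate 4. The difference averaged -0.224 ± 0.303 (SD, n = 3 sets), so it was smaller than its spread between sets and did not keep its sign. This difference was not tested, because the genes were chosen with earlier results of these data known.

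Place in the array order moved with these values. The layout of the slide was not taken from a platform file but inferred from the number of spots and the order of duplicates, and every block and position value rests on that reading. The array order was divided into 48 consecutive blocks of equal size, and the median of the other spots in a gene's block was averaged over the 3 sets. Those block values ran from -0.736 to 0.475 over the 29 genes, and their median was -0.186 for P450 genes and 0.0797 for GST and UGT genes together. Across the genes a block's value and the gene's own mean correlated with r of 0.776 (n = 29 genes) and r of 0.866 among P450 genes (n = 16), values that share slides and sets. Cyp4d8 and Cyp304a1 lay in 1 block, whose medians were -0.484, -1.04 and -0.575 in the shared set, replicate 2 and replicate 4. Cyp303a1 and 1 pair of Cyp9b1 spots shared another, at -0.325, -1.0005 and -0.874. At the other end, Cyp4p1 lay in a block with medians of 0.711, 0.582 and 0.133.

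**Figure D2:**
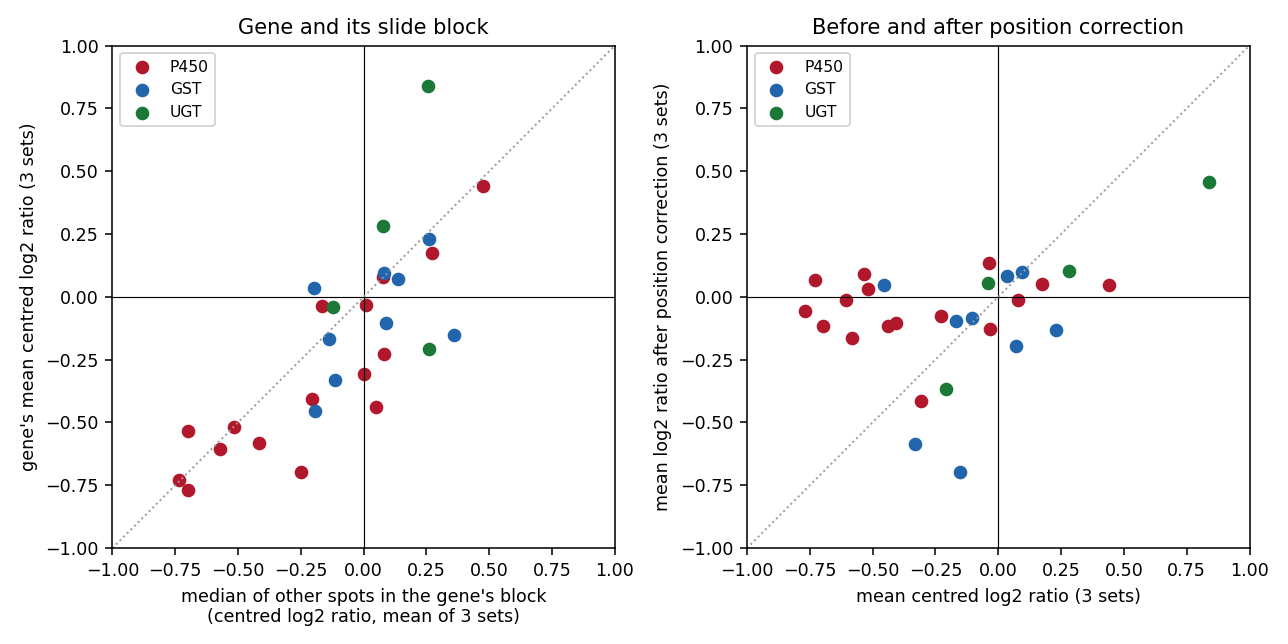
Left, mean centred log2 ratio of each gene against the median of the other spots in its slide block; right, mean after position correction against the mean before it (all axes in log2 units, 1 point per gene, dotted line of equal values). On the left the points rise along the line (r of 0.776), and on the right the P450 points gather near 0 while Ugt305A1, GstD9 and GstE12 lie away from it.

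After the block median and a smooth trend within each block were subtracted, the P450 median was -0.0343, the GST median -0.0953 and the UGT median 0.0784, against -0.0283 over all units. The P450 mean lay closer to 0 than before for 13 of 16 genes. Cyp4d8, Cyp303a1, Cyp301a1 and Cyp9b1 were then at -0.0569, 0.0658, -0.117 and -0.0117. Of the 16, 2 were negative and none positive in all sets, where 22.5% and 23% of all units were. The P450 minus GST difference by set was 0.00907, -0.0480 and -0.00841. The lower P450 median of the centred values was thus not seen on this scale, and the centred offset cannot be told apart from the inferred position on the slide.

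With this correction limma called 0 of 3995 units (817 at an unadjusted p under 0.05) and 0 of the 29 genes (4 at an unadjusted p under 0.05). The 4 were Ugt305A1, GstE12, Cyp12a5 and GstD9, which read as follows in the shared set, replicate 2 and replicate 4. GstE12 was at -1.02, -0.621 and -0.450 (mean -0.697; limma adjusted p = 0.136), the lowest mean on this scale, although its block as a whole was positive and its centred mean was only -0.154. Cyp12a5 was at -0.472, -0.297 and -0.478 (mean -0.416; limma adjusted p = 0.176). GstD9 was at -1.04, -0.687 and -0.0334, so replicate 4 differed from the other sets (mean -0.586; limma adjusted p = 0.229). For these 3 genes the means lay farther from 0 after correction than before it.

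**Figure D3:**
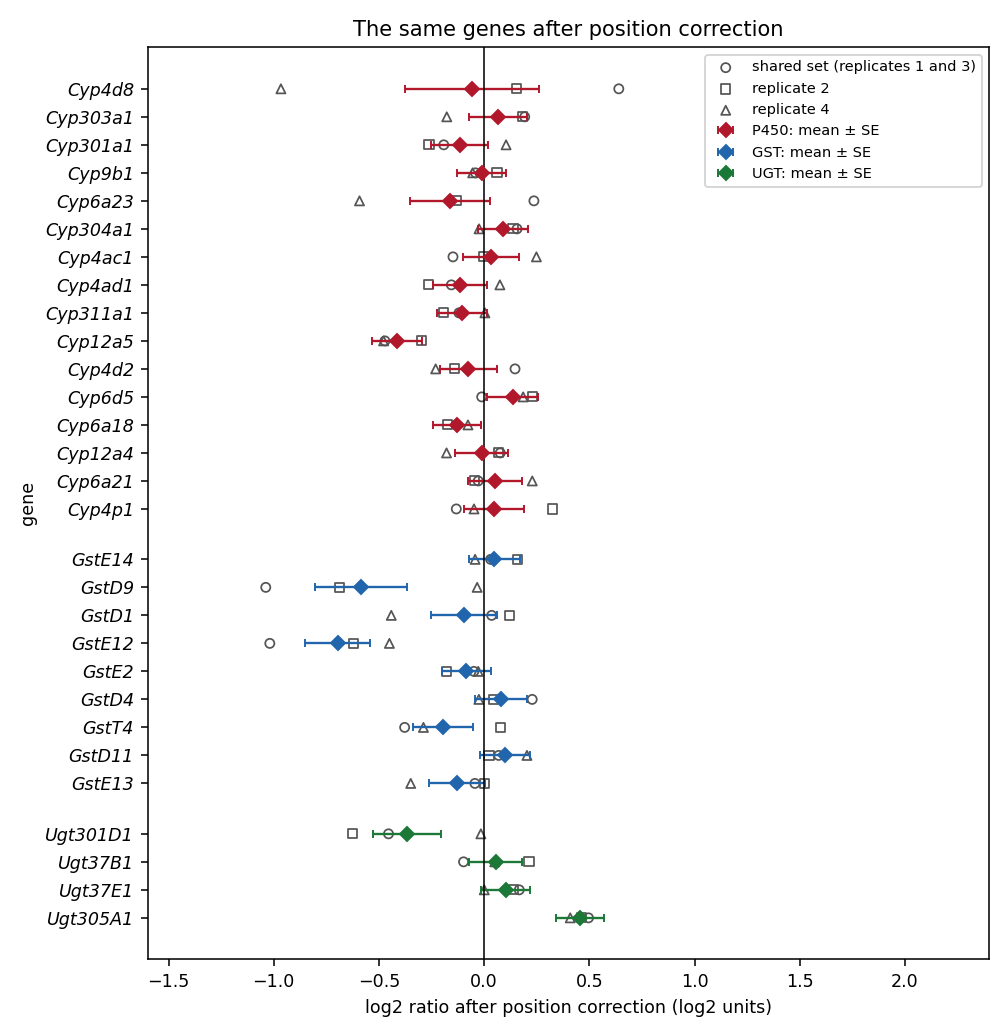
Log2 ratio after position correction (horizontal axis, log2 units) of the same 29 genes in the same order, with open symbols for the 3 sets, diamonds for the mean and bars for its SE from limma. P450 means lie between -0.416 and 0.135, and the values farthest from 0 are those of GstE12, GstD9, Ugt305A1 and Cyp12a5.

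Genes spotted more than once gave a view of position within a gene. Cyp311a1, Cyp6a23, Cyp6d5 and Cyp9b1 each had 2 pairs of spots in different blocks. The pairs of Cyp311a1 read 0.110, 0.596 and -0.507 in 1 block and -1.01, -1 and -0.629 in another, so their means differed by 0.945. Those of Cyp9b1 differed by 0.652, at means of -0.278 and -0.930. For both genes the lower pair lay in the block of lower median on replicates 2 and 4. After position correction these differences were 0.315 and 0.314. For Cyp6a23 and Cyp6d5 the pairs differed by 0.187 and 0.0828 before correction and by 0.267 and 0.356 after it, so the correction did not bring the pairs of every gene together. It is not known whether the pairs of a gene hold the same cDNA clone.

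**Figure D4:**
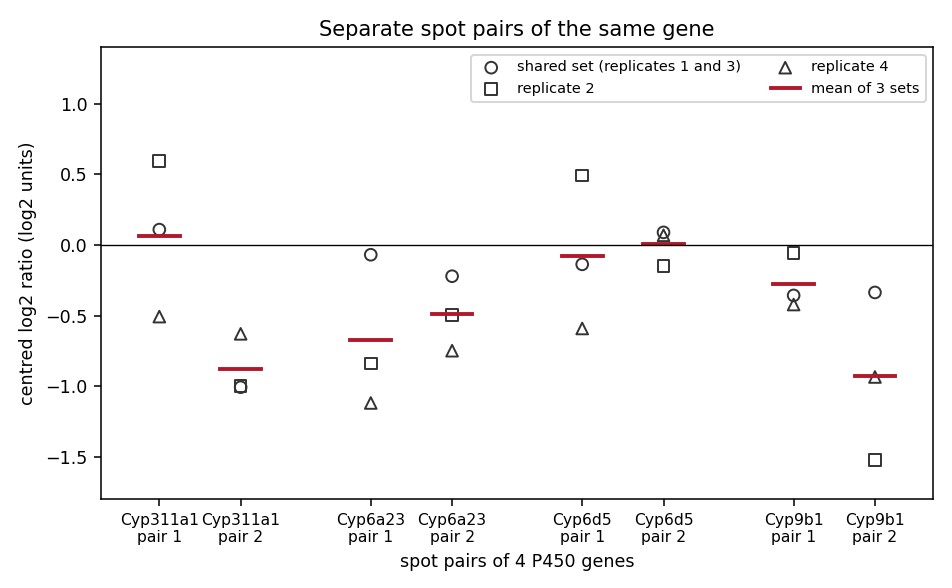
Centred log2 ratio (vertical axis, log2 units) of the 2 spot pairs of each of 4 P450 genes, with open symbols for the 3 sets and bars for their mean. The pairs of Cyp311a1 lie 0.945 apart and those of Cyp9b1 0.652, while those of Cyp6a23 and Cyp6d5 lie within 0.187.

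Cyp6d5, Cyp6a23 and Cyp9b1 each had a pair close together in the array order, in 1 row of 1 inferred block. Cyp6d5 read 0.0900, -0.146 and 0.0695, Cyp6a23 read -0.0685, -0.838 and -1.12, and Cyp9b1 read -0.357, -0.0565 and -0.421. Cyp6a23 was below Cyp6d5 in all 3 sets, with means of -0.675 and 0.00450. After position correction the order turned in the shared set, where Cyp6a23 read 0.182 and Cyp6d5 0.148, and held on replicates 2 (-0.450 and 0.167) and 4 (-0.622 and 0.624). Over the 33 pairs of the 29 genes, duplicate spots differed by a median of 0.124 to 0.147 per set and by at most 0.709, on a pair of Cyp9b1 on replicate 2. The duplicates of this Cyp6a23 pair differed by 0.473 on replicate 2.

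Under the other reading, in which a value is Cy5 over Cy3, the treatment effect is the value on replicate 2 minus that on replicate 4, divided by 2, and the shared set enters only through the spread. No unit passed (0 of 3995, 0% of units; limma, smallest adjusted p 0.244), and 161 had an unadjusted p under 0.05. Of the 29 genes 1 did, Cyp4ad1, at -0.788 ± 0.265 (SE), with an adjusted p of 0.967. It was the 1 P450 gene whose 2 arrays of opposite dye were both over 0.5 from 0 with opposite signs, at -1.07 and 0.507. The next were Ugt301D1 at -0.568 ± 0.268 and Cyp4p1 at 0.483 ± 0.241 (SE). The effect of Ugt305A1 was -0.0390 ± 0.251 (SE), since its 2 values were nearly equal. Family medians were 0.139 for P450s, -0.0558 for GSTs and -0.0520 for UGTs, against -0.0208 over all units. This contrast sets 1 array against 1 and has 1 residual degree of freedom per gene before the spread is pooled.

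**Figure D5:**
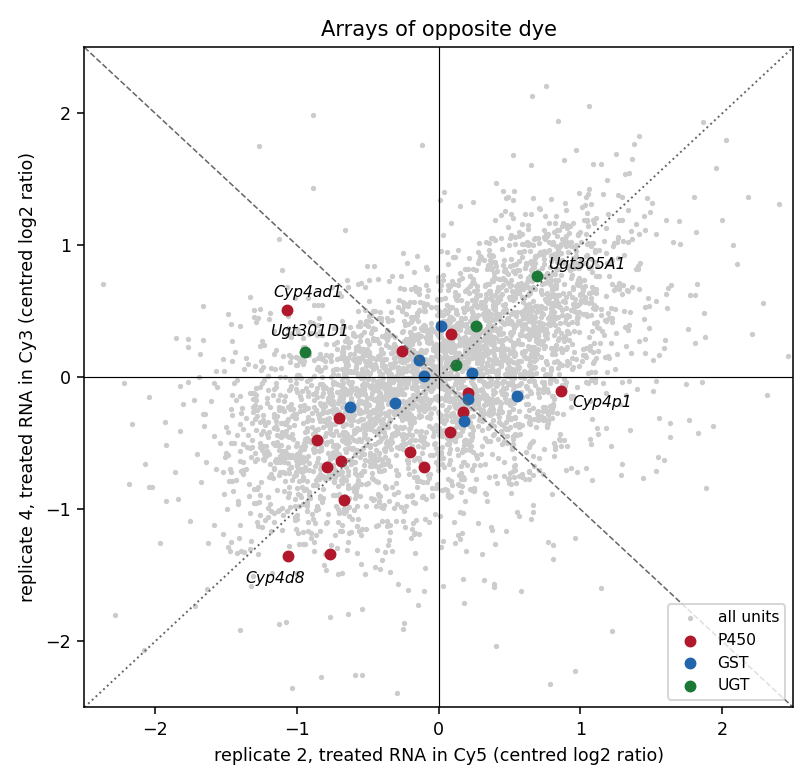
Centred log2 ratio on replicate 4, with treated RNA in Cy3, against replicate 2, with treated RNA in Cy5 (log2 units; grey, all units; colours, the 29 genes; 33 units lie outside the plotted range of 2.5 on either side). Genes on the dotted line read alike with both dyes, as Ugt305A1 does, and genes near the dashed line turn their sign with the dye, as Cyp4ad1 does.

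Other genes of detoxification were read from a list of 97 symbols, of which 45 were on the slide and 16 were measured in all sets. None passed the threshold in the mean, and their median was -0.119 (-0.0169 after position correction). The 6 farthest from 0 were EcR, the ecdysone receptor, at 0.669, Fdx2, a mitochondrial ferredoxin, at -0.603, and Jheh2, an epoxide hydrolase, at -0.563. Then came maf-S, the small Maf partner of the CncC regulator, at -0.457, clt, a carboxylesterase, at -0.341, and Sod2, the mitochondrial superoxide dismutase, at 0.325. Of these, maf-S was the 1 whose mean lay over 0.5 from 0 after position correction (-0.522; limma adjusted p = 0.197). Keap1, which holds CncC in check, read -0.582, -0.306 and 0.303. The 6 measured glutathione and antioxidant genes, Sod2 among them, had a median of 0.0189. Gclm and Trxr1, the latter standing in for glutathione reductase in flies, were at 0.192 and 0.151. Trxr2, TrxT and se were at -0.113, -0.129 and -0.125. After position correction Trxr1 was at -0.195.

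Ratios show no level, so the head label could be checked only by which markers had values. Of 7 photoreceptor markers 4 were on the slide and 3 had a value on some array, though none had one in all sets. nSyb for neurons and Gs2 for glia were measured in all sets. So were 3 of 3 testis and accessory gland markers on the slide and 3 of 3 muscle markers. Which markers had values thus did not single out head tissue. For tissues that make these enzymes, counts are of markers on the slide. Measured in all sets were 5 of 9 for fat body, 3 of 5 for gut, 1 of 2 for tubule and 0 of 1 for oenocytes. Fat body means ran from -1.63 to 0.764 (median -0.124), with 1 positive past the threshold, and gut means from -0.580 to 1.56 (median 1.34), with 2 positive past it. Among the testis and accessory gland markers 1 was also positive past it, as were 8.29% of all units. The part of fat body, gut, tubule and oenocytes in the values of the 29 genes was not tested.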

How the data were processed

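Head RNA was measured on 4 two-colour cDNA slides. Per the series' design text, the authors quantified scans with GenePix Pro 6.0, normalized by ratio with Acuity 4.0 and filtered spots on intensity, flags and signal to noise. The deposited numbers were taken as log2 ratios because their range (-8.29 to 16.6) is too wide for log10 of a scanner ratio. For log base, centring and direction, the answer is not given in the sources used here.

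Spots with values on replicates 1, 2 and 4 were centred on the column median and averaged by gene symbol, or by duplicate pair without a symbol. limma 3.58.1 (R 4.3.3) was fitted to all 3995 units. Tests were two-sided, with Benjamini-Hochberg adjustment and a threshold of 0.05. The mean of 3 sets was tested against 0, and the dye-turned contrast used a dye term. The fits were also run on simulated data with independent noise and no effect of position. That run therefore says nothing about position on these slides. The slide layout was inferred from the spot count and the order of duplicates, with no platform file. Position correction subtracted the median of each block of 576 spots, then a robust loess (span 0.4) in blocks with 30 or more values. Intervals of 95% use limma's SE. Gene IDs of all 29 genes matched RefSeq Release 6, which was used for gene order only, and coordinates are left out since the array's annotation states no genome build. P-values measure only the spread between slides, which may be partly technical. Probe sequences were not used here, so cross-hybridisation between paralogues was not tested.

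Members, gene lists and tests were chosen with earlier results of these data known. Every member is named. Of the other detoxification genes, those past the threshold and the 6 of largest absolute mean were to be named. Keap1, Gclm, Trxr1, Trxr2, TrxT and se were added after their values were seen.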

Additional observations from a re-analysis of the deposited data

How the results depend on the processing

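The count of the 29 genes past the threshold was 1, and that over all units 408 of 3995. Both were 0 with the values as deposited, after position correction and with scale normalization (limma; 1493, 817 and 1359 units at an unadjusted p under 0.05). With all 4 columns counted as samples, which counts the shared values double, they were 4 of 26 genes and 897 of 3171 units. This added Cyp301a1, Cyp4ac1 and GstE14 to Ugt305A1. With values in all 4 columns they were 0 of 26 genes and 157 of 3171 units. With duplicate spots within 1 of each other they were 2 of 29 genes (Ugt305A1 and Cyp301a1) and 722 of 3645 units. With the fit and adjustment run on named genes only, 223 of 2023 units passed. Leaving out a replicate gave 0 to 1 of the genes and 2 to 408 units, with 2 without replicate 2 and 84 without replicate 1, where the fewer spots of replicate 3 stood for the shared set. The dye-turned contrast called none of the 29 genes under any setting run, and 14 units as deposited, 2 with the shared set read as treated in Cy5 and 1 read as treated in Cy3. The median over P450 genes was -0.795 as deposited and -0.0343 after position correction, that over GSTs -0.479 as deposited, and that over UGTs -0.253 as deposited and 0.316 with values in all 4 columns (0.0595 to 0.335 with a replicate left out). As deposited, all units had a median of -0.399. The sign turned as deposited for GstD4 (-0.337), GstT4 (-0.303), GstD11 (-0.279), GstE13 (-0.145), Cyp12a4 (-0.294), Cyp6a21 (-0.198) and Ugt37E1 (-0.0932). It turned after position correction for GstE14 (0.0488), GstT4 (-0.197), GstE13 (-0.130), Cyp303a1 (0.0658), Cyp304a1 (0.0897), Cyp4ac1 (0.0321), Cyp6d5 (0.135), Cyp12a4 (-0.0114) and Ugt37B1 (0.0550). With a replicate left out, means ran from -0.0470 to 0.137 for GstD4, -0.172 to 0.178 for GstT4, -0.0520 to 0.134 for GstD11, -0.142 to 0.0749 for Cyp6d5, -0.149 to 0.0823 for Cyp6a18 and -0.409 to 0.159 for Ugt301D1. Without replicate 4 the means of Cyp4d8, Cyp303a1, Cyp4ad1 and Cyp4p1 were -0.476, -0.424, -0.910 and 0.710, and without replicate 2 those of Cyp4ad1, Cyp12a5 and Cyp4p1 were -0.122, -0.501 and 0.227. Cyp9b1 was at -0.259 without replicate 1 and -0.278 with values in all 4 columns. For Cyp9b1 1 pair of spots dropped out. Cyp6a21, Ugt37B1 and Ugt37E1 had no value on replicate 3. The UGT medians without replicate 1 (0.335) and with values in all 4 columns (0.316) thus cover only Ugt301D1 and Ugt305A1. The cause of the other changes was not tested. Of 351 gene values under other settings, 22 turned sign, 7 fell short of the threshold and 4 newly passed it. All 7 that fell short were of Ugt305A1, the 1 gene that could, since no other passed in the main fit. The 351 include 29 values without replicate 3, which equal the main ones by construction.

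No paired analysis was possible because there is 1 group, and the deposited ratios already pair treated with control. With 3 distinct sets, signal over background unknown and direction unstated, a family-wide shift of the size of the position effect could not be resolved.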

Other observations

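Beyond the 29 genes, 12 of these families had values on some slides only and entered no comparison. On replicate 4 alone, 8 genes were measured. GstZ1 read 1.13 there (centred log2 ratio), Ugt36D1 0.849, Cyp313a5 0.654, GstE1 0.625, Cyp310a1 0.326, GstZ2 0.0515, GstE3 -0.241 and Cyp313a1 -0.770. A second pair of Cyp12a4 spots read -0.565 on replicate 4, where the pair used above read -0.119. The other 4 genes lacked replicate 4. In the shared set and on replicate 2, Cyp309a1 read 0.712 and -0.115, Cyp4d20 read 0.327 and -0.530, Cyp9f3 read -0.578 and 0.412, and Cyp28d1 read -0.208 and -0.247. For 3 of these 4 the sets had opposite signs.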
